A study of Mus musculus with 6 samples.

Results

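The 5 genes of the NF-kB subunits (Nfkb1, Nfkb2, Rel, Rela and Relb) and 5 genes of IkB proteins (Nfkbia, Nfkbib, Nfkbie, Nfkbiz and Bcl3) were described across 6 RNA sequencing libraries of a mouse aortic cell line. The members were found by gene symbol, and all 10 were present among the 21674 genes of the deposited tables. The study asked how loss of the RNA-binding protein Ptbp1, and its return as a human cDNA, affected cells before and after the cytokine TNF. The libraries were read by the names of their files as KO (CRISPR deletion of Ptbp1, a single-cell clone) given TNF, Rescue (the KO line with human PTBP1 cDNA) given TNF and WT (the parental line, "basal" in the file names) given TNF, followed by KO, Rescue and WT without TNF. Each group was 1 library, with no replicates, and TNF was given at 30 ng/mL for a time that the labels do not state. All groups shared the parental line, labelled Fn AB+/- and TetOn_SV40, which carries an SV40 gene under doxycycline control for immortalisation and had been expanded in doxycycline at 2 ug/mL and then taken off it. The promoter of the PTBP1 cDNA is not given in the labels.

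NF-kB is a dimer of REL-homology proteins. In resting cells the classical IkB proteins (from Nfkbia, Nfkbib and Nfkbie) hold it in the cytoplasm, and TNF signalling through the IKK kinase has them degraded so that the dimer enters the nucleus. Several genes of the system, with Nfkbia the best known, are themselves targets of NF-kB, which makes a negative feedback, and in vessels the pathway switches on leukocyte adhesion molecules and chemokines. Nfkbiz and Bcl3 encode nuclear IkB proteins that bind p50 or p52 dimers and modulate transcription.

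Group names here come from the files, and for 4 of 6 libraries they disagree with the label. The library named KO with TNF is labelled WT with TNF, the one named WT with TNF is labelled KO, the one named KO is labelled Rescue, and the one named Rescue is labelled KO with TNF. Those named Rescue with TNF and WT carry the same label. Ptbp1 was at 275.1, 128.9 and 270.2 TPM (a level per transcript length that sums to the same total in each library) in the libraries named KO, Rescue and WT with TNF, against 265.8, 126.6 and 236.2 TPM in those named KO, Rescue and WT. The messenger RNA was therefore not lower in the libraries named KO, and it was lowest in those named Rescue. Ptbp2, the paralogue that Ptbp1 represses, was at 106.0, 45.3 and 20.7 TPM with TNF and 127.9, 42.2 and 22.8 TPM without, in the same order, so that it was highest in both libraries named KO. The TNF targets Ccl2 (1138.0, 5201.8 and 6016.5 TPM, against 104.7, 169.2 and 148.6), Vcam1 (119.1, 510.3 and 784.2, against 26.9, 41.4 and 67.4) and Icam1 (1.9, 2.5 and 18.4, against 0.2, 0.2 and 0.4) were higher in every library named TNF than in any without. The 5 tests across all genes were run on both readings, and with the labels' groups edgeR called 0 of 12728 genes in each. Values of the labels' reading stand beside those tests, while single-library ratios, summed levels and splicing are given by file names only.

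Depth ran from 19582761 to 21609245 expected counts a library. The cells are labelled aortic endothelial, but of 14 endothelial markers only 2 or 3 a library reached 1 TPM, mainly Eng (147.3 to 199.9 TPM). Pecam1, Cdh5 and Kdr stayed at 0.6 TPM or less, and Cldn5 was at 0.0 TPM in all 6. The 13 smooth muscle and fibroblast markers summed to 7103.7, 4958.4 and 6126.7 TPM in KO, Rescue and WT with TNF, and to 10954.7, 11101.0 and 11985.3 TPM without. Most of each sum was the collagen genes Col1a1 (2569.1 to 6220.1 TPM) and Col1a2 (1253.8 to 3955.3 TPM). Acta2 was at 708.7 to 1560.6 TPM, while Myh11 was at 0.3 TPM or less in all libraries. Blood cell and macrophage markers summed to 21.1 to 33.9 TPM over 7 measured genes, with Ptprc and Cd3e at 0. Most of that sum was Cd68 (10.3 to 29.3 TPM) and Lyz2 (3.1 to 11.9 TPM). Epithelial markers summed to 0.1 to 1.2 TPM. In bulk RNA a change in the number of cells of a type and a change in RNA per cell cannot be told apart.

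Promoter sequences are shown because NF-kB binds kB sites in DNA and several of its own genes are among its known targets. RefSeq promoters (build GRCm38.p6, 250 bases before to 50 after the start) were found for 7 of 10 members, at 9 starts. Nfkb1, Relb and Nfkbiz had no entry. The 10-base kB consensus, searched on both strands, occurred in the promoters of 5 of the 7 members and in 7 of 9 promoters (77.8%), against 1480 of 32851 promoters in the whole table (4.5%). The 2nd and 3rd starts of Nfkb2 overlap and share a site. The 6 promoters below span chr12:55492598-55492897 (minus strand), chr17:45555450-45555749 (plus), chr7:19822706-19823005 (minus), chr19:46304487-46304786 (plus), chr11:23770920-23771219 (minus) and chr19:5637291-5637590 (plus), are written 5′ to 3′ on the gene's strand, and have the matches in capitals.
Nfkbia: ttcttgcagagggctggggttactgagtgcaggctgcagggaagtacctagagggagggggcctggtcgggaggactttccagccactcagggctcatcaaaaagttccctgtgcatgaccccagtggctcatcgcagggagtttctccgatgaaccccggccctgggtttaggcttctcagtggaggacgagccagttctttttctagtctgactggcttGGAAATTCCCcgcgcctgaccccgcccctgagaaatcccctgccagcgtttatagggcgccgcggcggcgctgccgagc
Nfkbie: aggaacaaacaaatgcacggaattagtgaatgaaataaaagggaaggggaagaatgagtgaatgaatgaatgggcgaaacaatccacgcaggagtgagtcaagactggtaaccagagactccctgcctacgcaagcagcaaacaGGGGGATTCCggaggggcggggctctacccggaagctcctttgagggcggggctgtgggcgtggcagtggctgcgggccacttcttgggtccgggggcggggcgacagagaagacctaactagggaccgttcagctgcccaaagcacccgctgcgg
Bcl3: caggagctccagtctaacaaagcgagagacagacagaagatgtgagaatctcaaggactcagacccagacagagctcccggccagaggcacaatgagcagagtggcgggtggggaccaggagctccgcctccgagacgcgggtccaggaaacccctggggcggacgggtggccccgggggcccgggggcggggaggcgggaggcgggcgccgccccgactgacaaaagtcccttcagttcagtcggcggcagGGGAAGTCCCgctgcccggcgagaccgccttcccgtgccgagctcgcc
Nfkb2: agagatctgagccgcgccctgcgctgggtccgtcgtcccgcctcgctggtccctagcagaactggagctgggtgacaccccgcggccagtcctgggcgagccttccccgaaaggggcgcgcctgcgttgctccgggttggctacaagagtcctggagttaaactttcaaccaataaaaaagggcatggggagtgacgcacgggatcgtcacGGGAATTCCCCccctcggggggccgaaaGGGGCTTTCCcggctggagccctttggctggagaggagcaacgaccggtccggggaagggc
Rel: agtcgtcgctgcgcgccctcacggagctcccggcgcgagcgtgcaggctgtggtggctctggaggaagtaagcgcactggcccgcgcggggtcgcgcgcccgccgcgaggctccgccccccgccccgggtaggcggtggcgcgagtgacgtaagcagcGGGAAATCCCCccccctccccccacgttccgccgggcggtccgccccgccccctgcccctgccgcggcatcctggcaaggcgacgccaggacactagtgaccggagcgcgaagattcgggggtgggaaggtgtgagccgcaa
Rela: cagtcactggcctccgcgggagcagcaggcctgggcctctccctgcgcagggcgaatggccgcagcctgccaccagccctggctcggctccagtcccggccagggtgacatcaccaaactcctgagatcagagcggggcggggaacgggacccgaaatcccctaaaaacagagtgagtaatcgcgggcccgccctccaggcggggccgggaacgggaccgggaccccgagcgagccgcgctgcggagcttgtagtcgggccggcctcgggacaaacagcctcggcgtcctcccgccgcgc
Matches began at base -29 from the start in Nfkbia, -106 in Nfkbie, 2 in Bcl3, -39 and -11 in this Nfkb2 promoter, and -92 in Rel. In Nfkb2 and Rel, matches on the strands overlap in 1 run of capitals. Rel has matches although its level did not pass the TNF test, and Rela, like Nfkbib, has none in this window although both passed. A match is a description of these letters and not of binding.

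By RSEM TPM, the subunit genes Nfkb2 (p100, processed to p52), Nfkb1 (p105, processed to p50) and Rela (p65, a transactivating subunit) were the most abundant in every library. Rel (c-Rel, best known from lymphocytes) was the least. The place of Rel differed in the second deposited quantification, in counts not scaled to length. There it had 1076, 1311 and 927 counts in untreated KO, Rescue and WT, against 455, 395 and 478 for Relb. With TNF it had 944, 1420 and 1358, against 1031, 1990 and 2914 for Relb. Nfkb2 was at 155.2, 157.8 and 189.7 TPM in KO, Rescue and WT with TNF, against 93.8, 59.6 and 101.1 TPM in KO, Rescue and WT without. Nfkb1 was at 81.2, 93.8 and 114.4 TPM with TNF, against 62.3, 50.1 and 50.3 TPM without. Rela was at 74.3, 110.5 and 146.2 TPM with TNF, against 61.2, 62.6 and 74.0 TPM without. For all 3 genes each library with TNF lay above each one without it, though for Rela the KO library with TNF exceeded the untreated WT library by only a fraction of a TPM, within counting error.

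Relb, the partner of p52 in the non-canonical pathway, was at 33.7, 69.2 and 93.2 TPM in KO, Rescue and WT with TNF, against 16.0, 12.5 and 18.2 TPM without. Rel was at 7.9, 11.7 and 10.5 TPM with TNF, against 9.9, 10.1 and 8.4 TPM without. The Relb groups did not overlap, while those of Rel did. For Rel the KO library with TNF was the lowest of all, though within counting error of untreated WT.

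Among the classical inhibitors, Nfkbia (IkB-alpha) was by far the most abundant, at 200.2, 509.4 and 557.6 TPM in KO, Rescue and WT with TNF, against 103.5, 84.5 and 84.6 TPM without. Nfkbie (IkB-epsilon) was at 24.8, 72.2 and 114.5 TPM with TNF, against 6.7, 7.3 and 10.6 TPM without. Nfkbib (IkB-beta) was at 20.9, 32.1 and 32.9 TPM with TNF, against 14.8, 17.3 and 13.9 TPM without. In all 3 the groups did not overlap, and the KO library was the lowest of those with TNF.

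Of the nuclear IkB genes, Nfkbiz (IkB-zeta) was at 16.6, 23.7 and 28.7 TPM in KO, Rescue and WT with TNF, against 10.1, 10.9 and 11.6 TPM without. Bcl3 was at 3.3, 7.4 and 62.2 TPM with TNF, against 2.1, 1.0 and 13.0 TPM without. The Bcl3 groups with and without TNF overlapped, since untreated WT lay above KO and Rescue with TNF. It also rested on few reads outside WT, with 61, 129, 37 and 18 expected counts in KO with TNF, Rescue with TNF, KO and Rescue, against 1215 and 220 in WT with and without TNF.

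**Figure D1:**
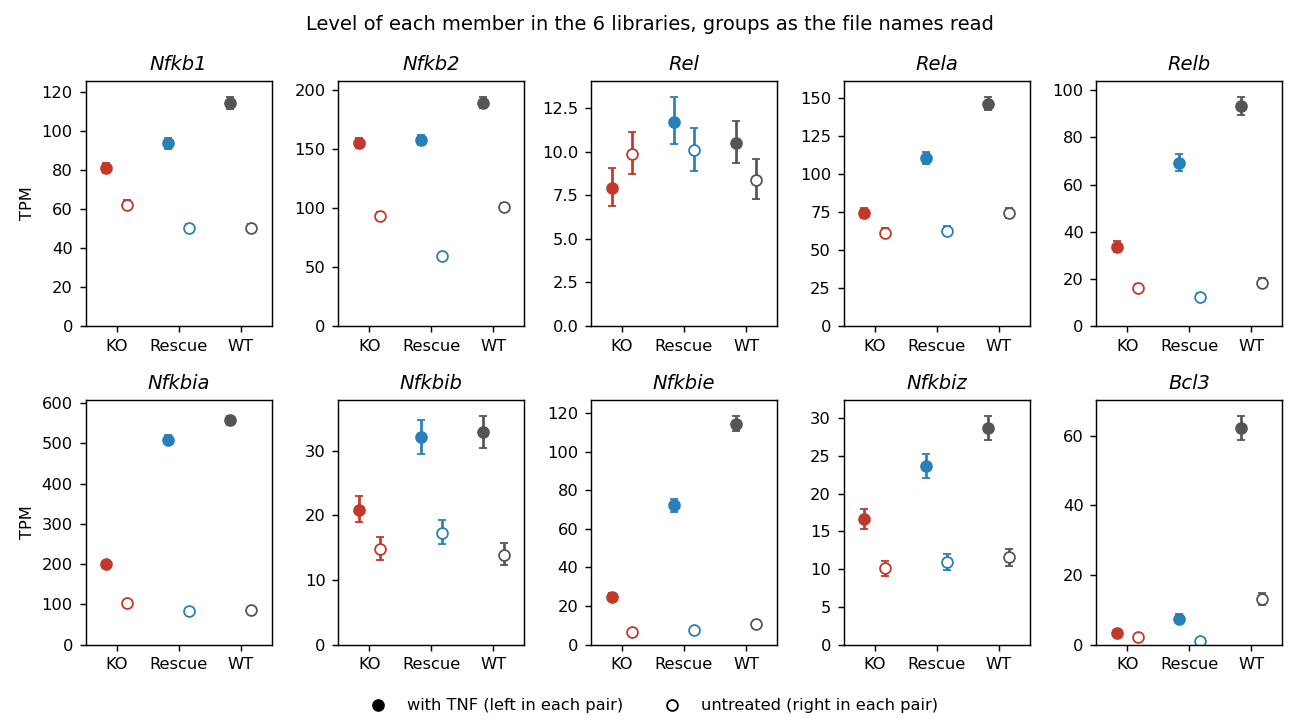
TPM (y axis, from 0, with a scale of its own in each panel) of the 10 members in KO, Rescue and WT libraries (x axis), with TNF (filled, left in each pair) and untreated (open, right), 1 library a point with a 95% Poisson counting interval. For Nfkbia the points with TNF sit at 200.2, 509.4 and 557.6 TPM and the untreated ones between 84.5 and 103.5 TPM, while Bcl3 exceeds 10 TPM only in WT.

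In the order of levels per length (TPM), Nfkbia ranked first in 5 of 6 libraries and Nfkb2 first in untreated WT. Bcl3 ranked last in all KO and Rescue libraries, and Rel in both WT libraries. The rank of Rel is by RSEM only, since the second quantification gave it 4.17 to 4.80 times as many counts. Nfkbie was at rank 6, 5 and 4 of 10 in KO, Rescue and WT with TNF, against rank 9 in all 3 untreated libraries. Several neighbours in this order did not differ beyond their counting intervals. With TNF these were Nfkbie and Nfkbib in KO, Nfkbie and Relb in Rescue, and Nfkbie and Nfkb1 in WT. In untreated KO they were Nfkb1 and Rela, Relb and Nfkbib, and Nfkbiz and Rel. In untreated Rescue they were Rela and Nfkb2, and Relb, Nfkbiz and Rel in turn. In untreated WT each neighbour from Nfkbib through Bcl3, Nfkbiz and Nfkbie to Rel overlapped the next. Nfkb2, Nfkbib and Bcl3 overlap genes on the opposite strand in GENCODE vM21, and without a stated strand reads from antisense partners cannot be told apart from theirs. Nfkb1 overlaps Gm43430 on its own strand, and how the counting split their reads is not given.

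TNF, taken over the 3 genotypes, raised 9 of the 10 members, from the subunits Nfkb1, Nfkb2, Rela and Relb to the inhibitors Nfkbia, Nfkbib, Nfkbie, Nfkbiz and Bcl3. None fell. By edgeR's quasi-likelihood test with Benjamini-Hochberg adjustment over 12728 genes at 0.05, 11.2% of all genes rose, 10.8% fell and 22.0% did either. Nfkbie had the largest change at 3.0 ± 0.34 (log2 fold change ± SE, adjusted p = 0.0108), which is 8.02-fold. Nfkbia rose by 2.20 ± 0.39 (adjusted p = 0.0241), Bcl3 by 2.11 ± 0.39 (adjusted p = 0.0253) and Relb by 2.07 ± 0.30 (adjusted p = 0.0163). The other 5 rose by 0.79 (Rela) to 1.15 (Nfkbiz), with Nfkb2 at 1.10 and Nfkb1 at 0.92. Rel changed by 0.17 ± 0.16 (adjusted p = 0.46) and did not pass. The median over the members was 1.12, against -0.01 over all tested genes. In TPM, 8 of the 10 members had every library with TNF above every one without, all but Rel and Bcl3, against 5.66% of tested genes.

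These p-values come from an additive model with 2 residual degrees of freedom. The model sets an effect against how unequal it was between genotypes and not against a spread between cultures. Its dispersion for each gene is moderated across all tested genes, so the SE and p do not rest on that inequality alone. The 9 calls became 0 without the Rescue library with TNF or without the untreated Rescue library, 3 without WT with TNF and 4 without untreated WT. Without Rescue with TNF the 9 values were still 0.74 (Rela) to 2.79 (Nfkbie), with adjusted p from 0.133 to 0.203, and without untreated Rescue the adjusted p ran from 0.131 to 0.202. The calls were 9 without either KO library, and no member turned direction. Leaving out either library of a genotype leaves TNF tested in the same 2 other genotypes, so the 2 omissions are not separate checks. The smooth muscle and fibroblast markers moved with TNF, 1 up and 9 down of 13 tested. Of 3 tested blood cell and macrophage markers Cd68 (0.73) rose and Lyz2 (-1.49) fell. The part of these markers in the result was not tested. With the labels' groups 0 of the 10 members passed by edgeR or by DESeq2, and the values ran from -1.95 to 0.71 with a median of 0.07. By edgeR 0 members had an unadjusted p under 0.05, where 491 of 12728 genes had.

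**Figure D2:**
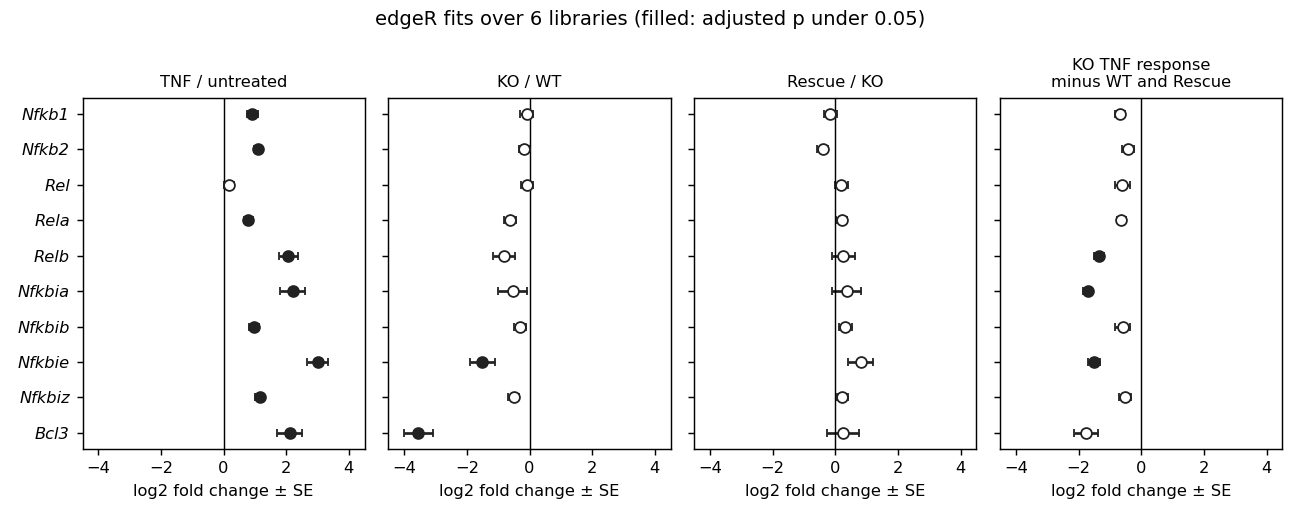
edgeR log2 fold change ± SE (x axis) of the 10 members (rows) for TNF against untreated, KO against WT, Rescue against KO, and the TNF response of KO minus that of WT and Rescue, groups as the file names read. Filled points have an adjusted p under 0.05: 9 for TNF, all above 0, 2 for KO against WT, 0 for Rescue against KO and 3 for the response difference, all below 0.

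The rest of the pathway moved unevenly with TNF. Of 13 feedback and non-canonical regulators 8 rose and 0 fell. Among them were Traf1 (4.26), Tnfaip3 (2.32), which encodes the ubiquitin-editing inhibitor A20, and Birc3 (1.95). Tnip3 had the largest value (6.02), but over only 3, 6 and 5 counts in untreated KO, Rescue and WT. With TNF it had 48, 268 and 692 counts. Of 22 tested target genes 16 rose and 2 fell, with Ccl2 at 4.69, Icam1 at 4.58 and Mmp9 at 4.12. Ccl20 also rose but had 1 count or fewer in each untreated library, and no fold is given. Of 13 IKK subunits and upstream kinases 3 rose, Map3k8 (1.04), Tbk1 (0.36) and the IKK subunit Ikbkb (0.31), and none fell. None of 6 genes for IkB ubiquitination passed by edgeR, and of 12 nuclear cofactors 1 rose, Nkrf (0.67). Of 3 tested genes of a further list (Ankrd33b, Ikbip and Nfkbil1) Ikbip fell (-0.31) and Ankrd33b rose (3.57). Ankrd33b had only 1, 4 and 7 counts in untreated KO, Rescue and WT. Nfkbid, on the same list, was at 0.1 to 0.5 TPM and was not tested. Of 12 partner factors 3 rose, Junb (1.94), Irf1 (1.49) and Jun (1.24), while Nfatc4 (-0.57) and Nfat5 (-0.27) fell. The medians of these lists were 2.03 for targets, 1.05 for feedback regulators, 0.29 for partner factors, 0.09 for kinases, 0.07 for ubiquitination genes, -0.06 for cofactors and -0.20 for the list of Ankrd33b, Ikbip and Nfkbil1. By the labels, edgeR called none of these genes, and the median was 0.32 for targets and -0.01 for feedback regulators.

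KO against WT, over both treatments, lowered 2 of the 10 members and raised 0, where 16.2% of all genes fell, 16.8% rose and 33.0% did either. Bcl3 fell by 3.55 ± 0.47 on the log2 scale (adjusted p = 0.00811) and Nfkbie fell by 1.50 ± 0.40 (adjusted p = 0.0435). The share of members called lay near that of all genes. The KO line is a single-cell clone, so loss of Ptbp1 and other differences of that clone from WT cannot be told apart. Bcl3 was also low in Rescue, which was made from the KO line, with Rescue against KO at 0.24 (edgeR adjusted p = 0.768). Rela (-0.62, adjusted p = 0.0576), Nfkbiz (-0.51, adjusted p = 0.0702) and Relb (-0.82, adjusted p = 0.14) did not pass by edgeR, though Rela passed with DESeq2 (-0.63, adjusted p = 0.0123) and with no filter on low counts (adjusted p = 0.0493). The other 5 lay between -0.53 (Nfkbia) and -0.08 (Rel). The median of the members was -0.52, against 0.00 over all genes. Without untreated KO 8 members passed and without untreated WT 4, while 1 passed without WT with TNF or either Rescue library, since Nfkbie then missed the threshold (adjusted p 0.114 to 0.197). Nfkbie was at -0.68 without KO with TNF and at -2.19 without untreated KO, and Bcl3 at -2.53 and -4.30, with both called. Bcl3 was called in each of these fits. Of 13 smooth muscle and fibroblast markers 5 fell between KO and WT and 0 rose, Thy1 (-8.32), Dcn (-3.87), Lum (-3.84), Pdgfra (-2.73) and Tagln (-0.77). Of 7 tested endothelial markers Kdr (-2.55) and Tek (-1.82) fell and Egfl7 (1.05) rose. Some of these were near the floor. Lum was at 0.1 TPM in both KO libraries and in untreated WT, against 3.1 TPM in WT with TNF. Kdr was at 0.3 TPM or less and Tek at 1.0 TPM or less in all libraries. The part of the markers in the result was not tested. With the labels' groups 0 members passed by edgeR or DESeq2, with values from -0.06 to 2.26 and a median of 0.57. By edgeR 0 members had an unadjusted p under 0.05, where 29 of 12728 genes had.

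Within each treatment KO was also set against WT. Between the libraries with TNF, KO was below WT for all 10 members, from -0.31 (Nfkb2) to -4.20 (Bcl3) on the log2 scale, with a median of -0.91. Relb (-1.48), Nfkbia (-1.50), Nfkbie (-2.22) and Bcl3 were at least 2-fold lower, 4 of 10 members where 10.1% of genes were. Between the untreated libraries KO was above WT for 4 members, the median was -0.12, and only Bcl3 (-2.56) was at least 2-fold lower, where 8.56% of genes were. Nfkb1 (0.34) and Nfkbia (0.32) were the highest in untreated KO relative to WT. Each of these is 1 library against 1, with no test.

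Among other genes of the pathway, KO against WT lowered 8 of 22 tested target genes, raised 0, and lowered 3 of 13 feedback regulators, Tnip3 (-3.52), Birc3 (-2.70) and Tnip2 (-0.66). Tnip3 had 48 and 3 counts in KO with and without TNF, against 692 and 5 in WT. Icam1 (-2.92), Mmp9 (-2.50) and Cxcl1 (-2.41) were among the targets, and Cxcl5 had 0 counts in both KO libraries against 700 and 39 in WT with and without TNF. Of the kinases, Ripk1, which relays the signal from the TNF receptor, fell by 1.38 ± 0.10 on the log2 scale (adjusted p = 0.00277), at 9.0 and 11.1 TPM in KO with and without TNF, against 26.1 and 26.2 TPM in WT. Map3k8 (-1.29) and Tab2 (-0.27) fell as well, and Map3k3 (0.35) rose. Of 6 ubiquitination genes Btrc fell (-0.50), and of 12 cofactors Parp1 (0.41) and Commd1 (0.34) rose. Of Ankrd33b, Ikbip and Nfkbil1, Ikbip (-0.62) and Ankrd33b fell. Ankrd33b had 2 and 1 counts in KO with and without TNF, against 99 and 7 in WT. Of 12 partner factors Nfatc4 (-3.23), Cebpb (-1.08) and Stat3 (-1.07) fell and Nfatc3 (0.37) rose. By the labels, edgeR called none of these genes, and the medians were of the other sign, 1.79 for targets and 0.55 for feedback regulators, against -1.07 and -0.59 by file names.

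The TNF response of KO was lower than that of WT and Rescue for 3 members, Nfkbia (-1.72 ± 0.15 on the log2 scale, adjusted p = 0.00398), Nfkbie (-1.50 ± 0.19, adjusted p = 0.013) and Relb (-1.36 ± 0.16, adjusted p = 0.0122). Of all 12728 genes 0.990% were lower, 0.369% higher and 1.36% either. All 10 members lay below 0, from -0.44 (Nfkb2) to -1.77 (Bcl3, adjusted p = 0.091), with a median of -0.66 against 0.01 over all genes. Each member had an unadjusted p under 0.05, as had 1318 of 12728 genes. Between single libraries Nfkbia was 2.04-fold higher with TNF in KO, against 6.35-fold in Rescue and 7.17-fold in WT, and Nfkbie 3.88-fold in KO, against 10.26-fold in Rescue and 11.69-fold in WT. This model has 1 residual degree of freedom, the difference of the response between WT and Rescue, so both are treated as if they were replicates. The dispersion of each gene is also moderated across all tested genes, so the SE and p do not rest on that difference alone. With the second deposited quantification all 3 calls were lost, Nfkbia at -1.83 (adjusted p = 0.0582), Relb at -1.28 (adjusted p = 0.0795) and Nfkbie at -1.44 (adjusted p = 0.135), while DESeq2 called 3. With the labels' groups edgeR called 0 members, although 9 had an unadjusted p under 0.05, as had 826 of 12728 genes. DESeq2 called 7, and the values ran from -6.52 to -0.38. The share of all genes was not computed for DESeq2.

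**Figure D3:**
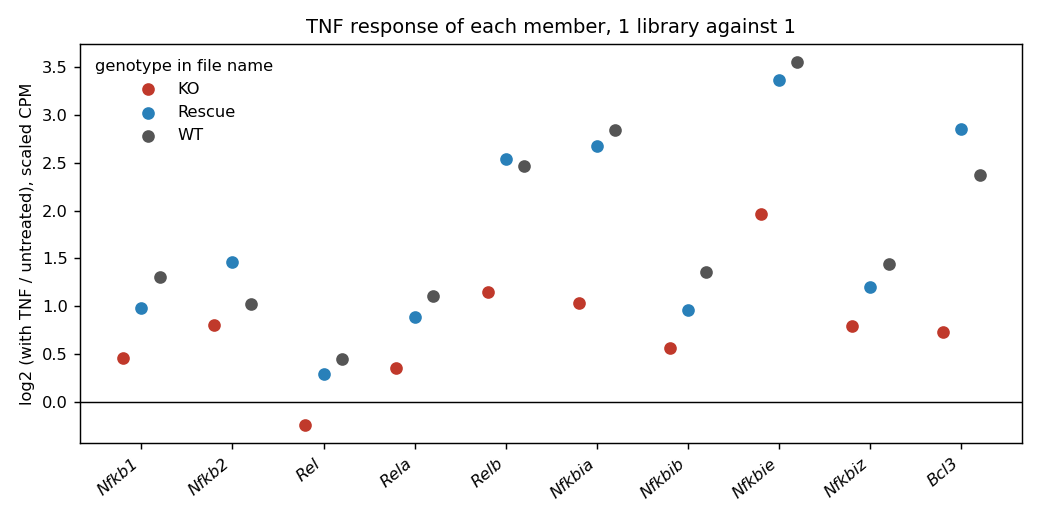
Log2 ratio of the library with TNF over the untreated one (y axis, prior count 2) for each member (x axis) in KO, Rescue and WT, 1 library against 1 and no test. The KO point is the lowest for each member, and Rel is the only member with a KO value below 0 (-0.24).

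Nfkbie had the largest TNF ratio of the members in all 3 pairs, at 1.96 in KO, 3.36 in Rescue and 3.55 in WT. Rel was the lowest in all 3, at -0.24, 0.29 and 0.45. The median over members was 0.76 in KO, 1.33 in Rescue and 1.40 in WT. At least 2-fold increases were seen in 3 of 10 members in KO (2.73% of genes), 6 in Rescue (4.42%) and 9 in WT (5.74%). Nfkb2, Relb and Bcl3 had a larger ratio in Rescue (1.46, 2.54 and 2.85) than in WT (1.02, 2.47 and 2.37), and the other 7 a larger one in WT. Outside the members the KO response was lower for Traf1 (-2.84) and Tnip1 (-1.63) among 13 feedback regulators, for Ikbke (-1.56) among 13 kinases, for 7 of 22 targets and for Irf1 (-1.66), Junb (-1.15) and Stat3 (-0.78) among 12 partner factors, and higher for Pdlim2 (1.26) among 12 cofactors. The medians were -1.34 for targets and -0.84 for feedback regulators, and with the labels' groups, where edgeR called none, -4.67 and -2.17. Of the 13 smooth muscle and fibroblast markers 1 had a higher response in KO, Col3a1 (1.11), and none a lower one.

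Rescue against KO, over both treatments, called 0 of the 10 members by edgeR or DESeq2, where edgeR called 20.4% of all genes. By edgeR 0 members had an unadjusted p under 0.05, where 4952 of 12728 genes had. Nfkbie was the highest at 0.80 ± 0.40 (adjusted p = 0.208) and Nfkb2 the lowest at -0.41 ± 0.17 (adjusted p = 0.136), and the median was 0.23 against 0.01 over all genes. Between the libraries with TNF, Rescue was above KO for 9 of 10 members, with Nfkbie (1.44), Nfkbia (1.25) and Bcl3 (1.03) at least 2-fold higher, 3 of 10 where 6.81% of genes were. Between the untreated libraries it was above KO for 3 of 10, with Bcl3 (-1.10) at least 2-fold lower, 1 of 10 where 5.19% of genes were. The value over both treatments rested on single libraries. The direction turned with the KO library that was kept. Without KO with TNF, all members but Nfkbib (0.03) lay below 0, with Nfkbia at -0.43 and Bcl3 lowest at -0.82. Without untreated KO, all but Nfkb2 (-0.19) lay above 0, with Nfkbia at 1.30 and Nfkbie highest at 1.48. Of 13 kinases Ripk1 rose by 1.48 ± 0.10 (adjusted p = 0.00494), and of 13 feedback regulators Tnip3 (2.36) and Birc3 (1.55) rose and Cyld (-0.55) and N4bp1 (-0.44) fell. Tnip3 had 268 and 6 counts in Rescue with and without TNF, against 48 and 3 in KO. Of 22 targets 3 rose and 0 fell, Ptgs2 (1.27), F3 (0.94) and Cxcl5, which had 101 and 14 counts in Rescue with and without TNF, against 0 in both KO libraries. Of 12 partner factors Nfatc4 (2.63) rose, of 6 ubiquitination genes Fbxw11 (0.34) rose, and none of 12 cofactors passed. Of Ankrd33b, Ikbip and Nfkbil1, Ikbip (0.58) and Ankrd33b rose. Ankrd33b had 51 and 4 counts in Rescue with and without TNF, against 2 and 1 in KO. Of the 13 smooth muscle and fibroblast markers 2 rose and 3 fell, and of 7 endothelial markers 1 fell, and their part in the result was not tested. With the labels' groups 0 members passed by either tool, with a median of -0.31, and the median of targets was -0.88, against 0.60 by file names. By edgeR 0 members had an unadjusted p under 0.05, where 27 of 12728 genes had.

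Rescue against WT lowered 1 member, Bcl3, which fell by 3.31 ± 0.45 on the log2 scale (adjusted p = 0.0114), where 12.1% of all genes fell and 24.6% changed in either direction. Between single libraries Rescue minus WT was -3.17 with TNF and -3.65 without on the log2 scale, 1 of 10 members at least 2-fold lower in each case, where 7.86% and 7.13% of genes were. By adjusted p Nfkb2 (-0.60, adjusted p = 0.0561) was next, and the other members lay between -0.71 (Nfkbie) and 0.11 (Rel). Bcl3 was not called without WT with TNF (-2.97, adjusted p = 0.0748), without Rescue with TNF (-4.15, adjusted p = 0.145) or without untreated Rescue (-2.93, adjusted p = 0.16), and 5 members passed without either KO library. Of the 13 smooth muscle and fibroblast markers 1 rose and 4 fell, and of 7 endothelial markers 1 fell, and their part in the result was not tested. With the labels' groups 0 members passed by edgeR or DESeq2, with a median of 0.29. By edgeR 0 members had an unadjusted p under 0.05, where 91 of 12728 genes had.

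Summed levels of inhibitor and subunit messenger RNA were set side by side. The 3 classical IkB genes summed to 245.9, 613.6 and 705.1 TPM in KO, Rescue and WT with TNF, and to 125.0, 109.2 and 109.2 TPM in KO, Rescue and WT without. The 5 subunit genes summed to 352.3, 443.1 and 554.0 TPM with TNF, and to 243.2, 194.9 and 252.0 TPM without. The ratio of IkB to subunit TPM was 0.70, 1.38 and 1.27 with TNF, against 0.51, 0.56 and 0.43 without. The TPM sum of the classical IkB genes thus exceeded that of the subunit genes in Rescue and WT with TNF and in no other library. These are sums of messenger RNA, and the proteins were not measured. Nfkbia made up 77.4% to 83.0% of the classical IkB sum in each library. Relb took 9.6%, 15.6% and 16.8% of the subunit sum with TNF, against 6.6%, 6.4% and 7.2% without.

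**Figure D4:**
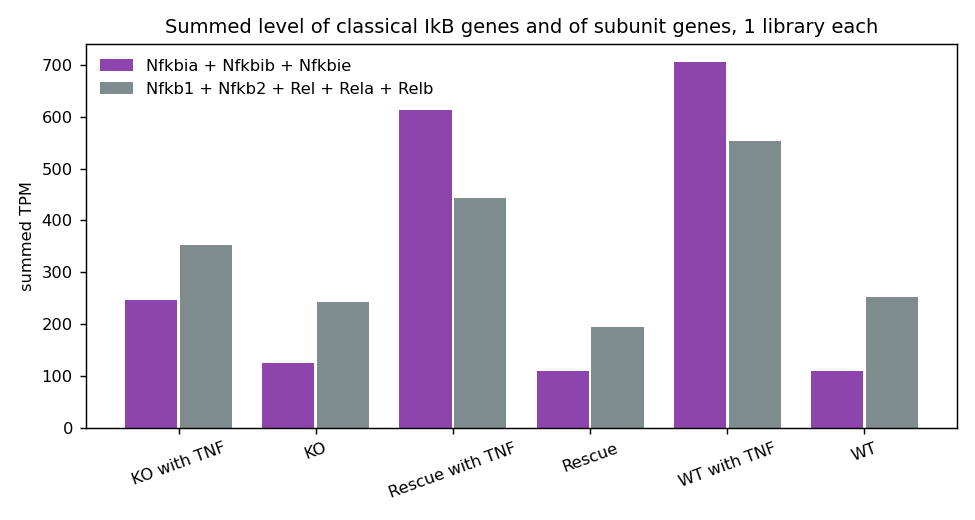
Summed TPM (y axis, from 0) of Nfkbia, Nfkbib and Nfkbie (purple) and of the 5 subunit genes (grey) in KO, Rescue and WT, each with TNF left of untreated, 1 library a bar and no error. The purple bar is the taller one only in Rescue with TNF (613.6 against 443.1 TPM) and WT with TNF (705.1 against 554.0 TPM).

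Splicing of the members, read as psi (the fraction of transcripts that include a node, a stretch between neighbouring splice sites), gave 111 nodes, of which 94 had at least 20 reads in all 6 libraries and none of those in Bcl3. For KO against WT 0 of the 94 differed by 0.1 or more without overlap, against 1.39% of 95183 nodes, and for TNF against untreated 0 did, against 0.261%. A 178-nt exon of Nfkb1 (chr3:135589327-135589504, GRCm38) was skipped in 7.2% (95% Wilson interval 4.8 to 10.6), 11.0% (8.2 to 14.5) and 8.7% (6.5 to 11.6) of junction reads, with inclusion averaged over both sides, in KO, Rescue and WT with TNF, and in 7.1% (4.5 to 11.1), 8.3% (5.1 to 13.2) and 9.1% (5.7 to 14.3) without. The intervals overlap in all libraries. A 99-nt exon of Nfkb1 (chr3:135655500-135655598) had a psi of 0.74 in Rescue with TNF, against 0.99 to 1.00 in the other 5, but 0 reads crossed the direct skipping junction there (0.0%, 95% Wilson interval 0.0 to 1.8). These intervals cover counting error only.

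Across the 6 libraries the genes most like a member were found by Pearson correlation of log2 CPM among 1763 variable genes, as a description over libraries that share treatments. For Nfkbia they were Ccl8 (0.997), Nab1 (0.994) and Serpinb2 (0.994). For Nfkb2 they were Itgb2 (0.988), Adam8 (0.979) and Cx3cl1 (0.978). For Bcl3 they were Slco2a1 (0.993), Mcc (0.982) and Il1r1 (0.980). Among the members, Relb, Nfkbia, Nfkbie and Nfkbiz were alike at 0.98 to 1.00, and Rel was the least like the rest, at 0.35 to 0.74.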

How the data were processed

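A SMARTER messenger RNA kit was used for all 6 libraries, per the labels' protocols. Expected counts and TPM were deposited for each gene (for each transcript in the library named KO, summed here to genes) and come from RSEM, per the submitters' processing notes. Its version, aligner, genome build and strand setting are not given in the sources used here. Another deposited table, called the second quantification, held estimated read counts per gene, and 54587 of its 55335 gene IDs matched a symbol. The authors also deposited psi, a fraction from 0 to 1 with the reads behind it, and counts of reads per splice junction, per the file headers. Which tool made these is likewise not given. The transcript table of the second quantification was left out, since gene values sufficed.

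File names gave the groups, and the labels gave a further reading of them. The members and gene lists were chosen with earlier results of these data known. Expected counts were rounded, a row without a gene name (0.073% to 0.093% of counts) was left out, and 12728 of 21674 genes passed filterByExpr. Genes were tested with edgeR 4.0.16 (limma 3.58.1, R 4.3.3), TMM factors and the quasi-likelihood F-test over all 6 libraries, with Benjamini-Hochberg adjustment over all tested genes at 0.05. The additive model of genotype and TNF has 2 residual degrees of freedom and the model with a KO term for the TNF response 1. The quasi-likelihood fit moderates the dispersion of each gene across all tested genes. The SE is the log2 fold change over the root of F. Single-library ratios had a prior count of 2. The fitting script was tested on simulated data. These had the same dispersion for all genes, and TNF and genotype effects that were equal across the other factor. That setting checks the code and not the calls made here. With 1 library a group, variation among cultures is not measured.

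Named outside the members were Ptbp1, Ptbp2, Ccl2, Icam1 and Vcam1 as the check of the labels, per pathway list up to 4 genes with the largest changes past the threshold for TNF or KO against WT (genes named in Rescue against KO and in the response difference, and cell type markers, were chosen after their values were seen), and for Nfkbia, Nfkb2 and Bcl3 the 3 most alike genes with a mean of at least 5 CPM and an SD of at least 0.5. Psi was used for nodes with at least 20 reads in all libraries. Alternatives were DESeq2 1.42.0, RLE factors, no filter, the second quantification, leaving out each library, only the libraries of the 2 genotypes compared, a prior count of 0.5, at least 50 reads and a psi difference of 0.2. Levels are TPM with 95% Poisson intervals in the plot, which cover counting error only.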

Additional observations from a re-analysis of the deposited data

Results flagged for a closer look

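The TNF response of KO, with groups as the file names read, differed from that of WT and Rescue by a test of the difference itself for 3 members. On the log2 scale the difference was -1.72 for Nfkbia (adjusted p = 0.00398), -1.50 for Nfkbie (adjusted p = 0.013) and -1.36 for Relb (adjusted p = 0.0122), by edgeR's quasi-likelihood test with 1 residual degree of freedom. The second quantification left none of the 3 past the threshold (adjusted p 0.0582 to 0.135).

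The Rel ratios with TNF differed in sign, at -0.24 in KO, 0.29 in Rescue and 0.45 in WT (log2 ratio of single libraries). In each genotype the 95% Poisson counting intervals of Rel TPM with and without TNF overlapped. In KO they were 6.87 to 9.04 with TNF and 8.71 to 11.16 without. The test of the difference between KO and the other genotypes gave -0.61 ± 0.24 (edgeR adjusted p = 0.421).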

How the results depend on the processing

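With 1 library left out, which gives fewer samples, the members called numbered 0 to 9 for TNF, 1 to 8 for KO against WT, 0 to 6 for Rescue against KO and 0 to 5 for Rescue against WT. KO against WT called 1 member with the second quantification or with only the libraries of the 2 genotypes, and 3 with DESeq2 or with no filter. Rescue against WT called 2 members with DESeq2, 2 with no filter and 5 with only the 2 genotypes. The KO response called 0 with the second quantification, and with the labels' groups DESeq2 called 7. The cause of these shifts was not tested. For these calls, the share of all genes was computed for the main edgeR fits only.

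With 1 library left out, these log2 values took both signs. For KO against WT they were Nfkb1 -0.43 to 0.25, Nfkb2 -0.42 to 0.03, Rel -0.39 to 0.23, Nfkbia -1.45 to 0.27 and Nfkbib -0.58 to 0.02. For Rescue against KO they were Nfkb1 -0.49 to 0.20, Rel -0.10 to 0.51, Rela -0.11 to 0.53, Relb -0.43 to 0.93, Nfkbia -0.43 to 1.30, Nfkbie -0.02 to 1.48, Nfkbiz -0.04 to 0.48 and Bcl3 -0.82 to 0.95 (-0.02 with DESeq2). For Rescue against WT they were Nfkb1 -0.53 to 0.07, Rel -0.08 to 0.34, Nfkbia -0.59 to 0.41 and Nfkbib -0.24 to 0.35. For TNF 0 values turned, and leaving out either library of a genotype tests the same remaining pairs. The KO response has no residual degree of freedom, or no estimate, with a library left out, and was not run so. RLE factors, a prior count of 0.5 and the stricter psi limits moved no call.

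Rel had 4.17 to 4.80 times as many counts in the second quantification as in RSEM, more than any other member. No paired analysis was possible because each group has 1 library and the labels carry no replicate numbers, so a block on them could not be fitted. The additive model holds genotype as a term, so TNF is already compared within each genotype.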
